A study of Mus musculus with 41 samples.

Results

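A set of 7 genes of the red cell lineage was followed through mouse B cell development: Gata1, Klf1, Epor, Alas2, Slc4a1, Car1 and Car2. They are 7 of the 18193 genes with a probe set of their own on the array, and were read by 9 of its 45037 probe sets. The probe sets were those annotated to 1 of these genes alone, and none was annotated to a gene of the set together with another gene. The genes were selected with earlier results of the same arrays known: an erythroid marker list had already been tested in fraction A against CLP, and the E array numbered 2 was to be set apart. The choice thus rests on measured values, and the levels in E are given below as a description with no test.

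RNA came from flow-sorted populations of untreated C57BL/6 mice wild type for Pax5, and each of the 41 arrays held 1 RNA sample. The earliest population was CLP, the common lymphoid progenitor that gives rise to lymphocytes, with 7 arrays. Hardy fractions A and B had 7 arrays each, and C, D, E and F had 5 each. Hardy fractions are steps of B cell development defined by surface markers, running through pre-pro-B (A), pro-B (B), large pre-B (C) and small pre-B cells (D) to immature (E) and mature B cells (F). The labels give no age, sex or number of animals and leave it unsaid whether replicates are different mice, so a p-value below measures the spread between arrays, which may be partly technical.

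Red cells form in the bone marrow beside the B lineage. The growth factor erythropoietin acts through its receptor Epor, and the zinc finger factors Gata1 and Klf1 switch on the genes for globin, heme and the red cell membrane. Alas2 is the erythroid enzyme of the first step of heme synthesis. Slc4a1 encodes band 3, the chloride and bicarbonate exchanger of the red cell membrane. Car1 and Car2 are carbonic anhydrases, which interconvert carbon dioxide and bicarbonate; Car2 is made in many other cells too. Mature mouse red cells carry no nucleus but reticulocytes still hold RNA for globins, Alas2 and Slc4a1, whereas Gata1, Klf1 and Epor mark nucleated precursors, and Gata1 is also used by mast cells, eosinophils and megakaryocytes.

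Gata1 binds DNA at GATA motifs and Klf1 at CACCC boxes, so the promoter windows of the genes are shown with these letters in capitals. RefSeq windows of the build GRCm38.p6 were at hand for Klf1 (chr8:84901732-84901981, plus strand), Epor (chr9:21963577-21963826, minus strand), Gata1 (chrX:7967911-7968160, minus strand) and Alas2 (chrX:150547167-150547416, plus strand), each with the 250 bases before the start that the RefSeq promoter table gives, 5′ to 3′ on the gene's strand. For Gata1 that start lies inside the span annotated for the gene, so the window is not upstream of its farthest annotated start. Slc4a1, Car1 and Car2 were the other genes. Capitals mark GATAA or its complement TTATC, and CACCC or its complement GGGTG.
Klf1: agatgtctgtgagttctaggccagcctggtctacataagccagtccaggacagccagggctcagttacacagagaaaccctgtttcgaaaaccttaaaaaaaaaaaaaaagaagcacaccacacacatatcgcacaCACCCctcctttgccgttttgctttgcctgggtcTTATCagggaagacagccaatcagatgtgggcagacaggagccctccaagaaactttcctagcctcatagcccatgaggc
Epor: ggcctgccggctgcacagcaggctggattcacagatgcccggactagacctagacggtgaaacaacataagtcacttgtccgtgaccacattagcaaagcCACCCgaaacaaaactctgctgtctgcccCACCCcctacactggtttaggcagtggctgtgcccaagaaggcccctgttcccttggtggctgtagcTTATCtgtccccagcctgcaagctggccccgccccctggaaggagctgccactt
Gata1: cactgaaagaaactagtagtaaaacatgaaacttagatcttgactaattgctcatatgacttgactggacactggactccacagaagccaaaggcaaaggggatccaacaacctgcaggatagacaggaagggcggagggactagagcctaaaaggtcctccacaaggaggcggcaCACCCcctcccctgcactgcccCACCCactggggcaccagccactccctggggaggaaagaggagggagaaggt
Alas2: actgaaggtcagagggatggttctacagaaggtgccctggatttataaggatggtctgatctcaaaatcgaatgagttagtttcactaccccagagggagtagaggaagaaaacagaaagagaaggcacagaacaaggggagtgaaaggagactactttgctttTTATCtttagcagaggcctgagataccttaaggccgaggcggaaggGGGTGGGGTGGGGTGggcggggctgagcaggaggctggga

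GATAA stood in 1 place each in the windows of Klf1, Epor and Alas2, 80, 54 and 86 bases before the start and in each case on the opposite strand, and it was not found in the Gata1 window. CACCC stood in 1 place in the Klf1 window, in 2 places each in those of Epor and Gata1, and in 3 places in that of Alas2, where the copies lay end to end from 40 to 26 bases before the start. Neither motif overlapped the other. Among 32851 mouse promoter windows of the same length, 22.6% held GATAA on either strand and 52.0% held CACCC. A match describes the letters only and is not a binding site shown by these data.

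Values are MAS5 signals, to which the authors scaled each array: the mean of the signals without the lowest and highest 2% was 500 on every array, and the median was between 69.1 and 153.1. The mean correlation of an array with the others of its population was between 0.913 and 0.972 outside fraction A, and between 0.799 and 0.892 in A, whose arrays thus agreed less among themselves. CLP arrays carried B lineage transcripts already (summed signal of 9 markers 32030.6 to 43877.5), A arrays spread widely (2650.4 to 70494.9) and carried the highest NK and T cell signals (12 markers, 35557.6 to 59448, against at most 11728.4 elsewhere), and in fractions B to F the B lineage sum was 42808.2 to 92851.7. Fold changes are given on the scale log2(signal + 32), which understates the change of dim genes, and tests are limma's over all 45037 probe sets with Benjamini-Hochberg adjustment and a threshold of 0.05. In such bulk samples, fewer cells of a type and less RNA per cell cannot be told apart.

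The 7 genes differed in how far they rose above the array's typical signal. Car2 was at or over the array median on all 41 arrays and Slc4a1 on 38, while Alas2 was on 28, Car1 on 19, Gata1 on 17, Klf1 on 16 and Epor on 3. Epor is therefore a dim probe set whose differences are small in absolute signal. Slc4a1 was read by 3 probe sets, of which the brightest is used below unless another is named. The second brightest was at or over the array median on 34 arrays, and the dimmest on 8.

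**Figure D1:**
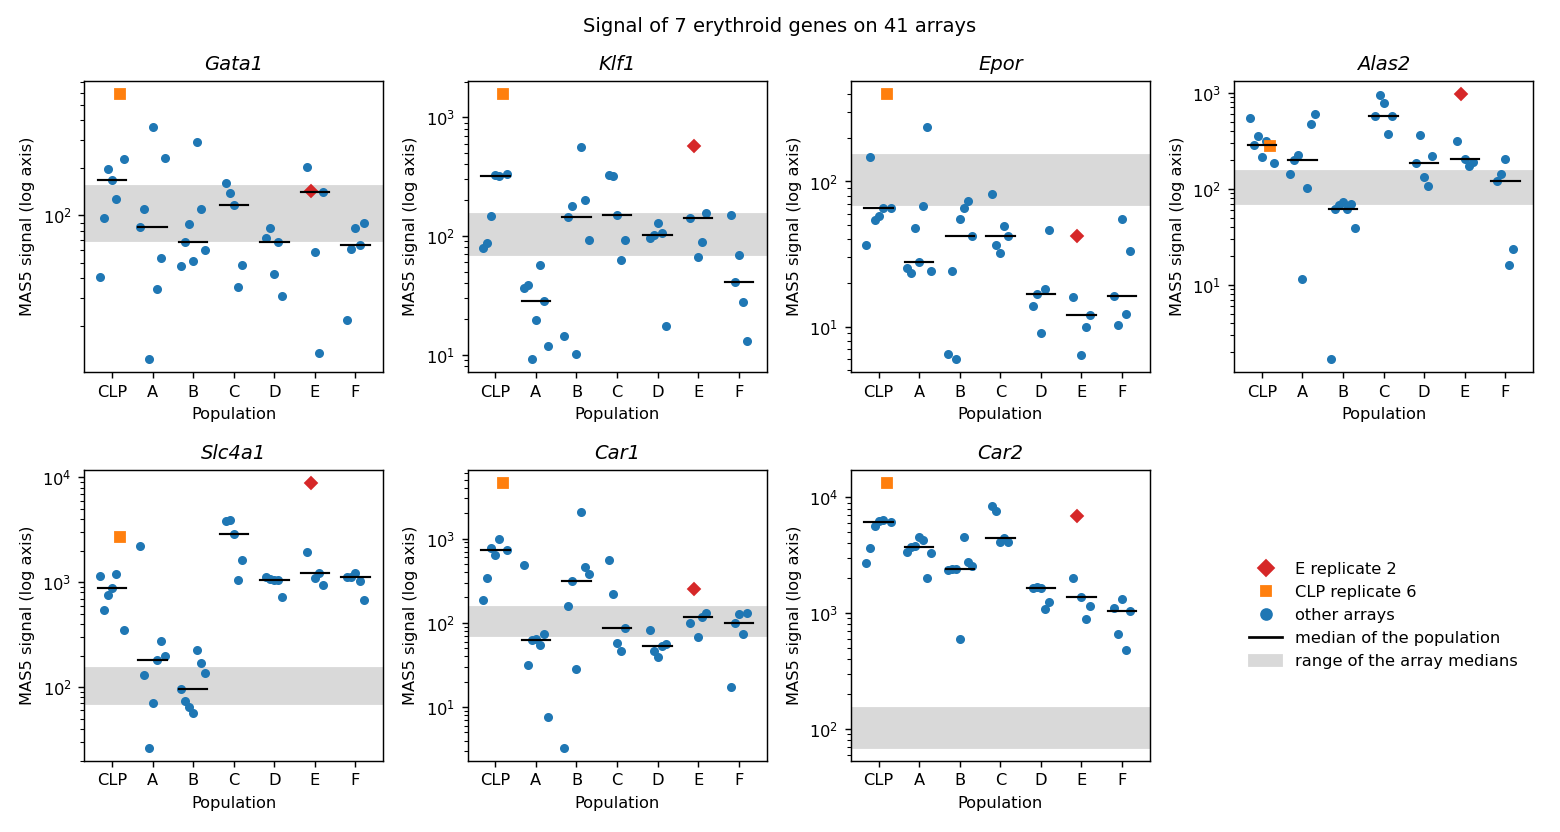
MAS5 signal (log axis) of each of the 7 genes on the 41 arrays, by population from CLP to F; E replicate 2 is a red diamond, CLP replicate 6 an orange square, the black bar the median of the population and the grey band the range of array medians. Slc4a1 was highest in C and lowest in A and B, Car1 and Klf1 were highest in CLP replicate 6, and E replicate 2 lay above the other E arrays for every gene but Gata1.

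Among the nuclear factors, Klf1 was highest in CLP, with signals between 79.1 and 1562.3 and a median of 321.4 on 7 arrays. In A it was between 9.2 and 57.1 (median 28.2), and in B between 10.1 and 561.9 (median 144.1). All A arrays lay below all CLP arrays, while B ran from the level of A to that of CLP. In C the signals were 323.4, 320.5, 150.4, 62.1 and 92.9, in D 96.6, 100.8, 128.7, 105.4 and 17.5, and in F 149.1, 40.8, 69.6, 27.8 and 13.1. These later populations overlapped each other, and no neighbouring pair in the order of medians (CLP, C, B, E without replicate 2, D, F, A) was free of overlap.

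Gata1 was dim outside a few arrays. Its signal was 40.9 to 586.3 in CLP (median 168.6), 12.3 to 364 in A (median 84) and 47.6 to 291.8 in B (median 68.1). It was 161.4, 139, 116.1, 35 and 48.4 in C, 71.8, 82.9, 42.4, 67.9 and 30.8 in D, and 21.7, 60.8, 83.3, 64.9 and 89.5 in F. The populations overlapped throughout, and none of the 5 tested comparisons called Gata1 with all arrays and the main settings. Epor, the receptor, was likewise low: 36.8 to 399 in CLP (median 65.6), 23.5 to 236.8 in A (median 27.7), 6 to 73.8 in B (median 42.1), 32.1 to 81.4 in C, 9 to 46.3 in D and 10.3 to 54.9 in F. Both factors and the receptor had their highest signal of all arrays in CLP replicate 6.

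Alas2 had another order. Its signals in C were 564.4, 952.3, 783.7, 370.5 and 575, the highest median of any population. CLP followed with 183.9 to 546.2 (median 288.3) and A with 11.6 to 595.6 (median 199.8). In B the signals were 1.7 to 72.1 (median 62), the lowest median, and all B arrays were below all C arrays. D had 186.7, 361.5, 133, 106.1 and 219.6, and F had 120, 141, 204.6, 16 and 23.8, so that both lay between B and C in their medians.

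Slc4a1 ran from 26.6 in A replicate 3 to 8841.9 in E replicate 2. In CLP it was 350.3 to 2674.2 (median 887.2). It was 26.6 to 2201.9 in A (median 181), where replicate 1 alone was above 273.2, and 56.9 to 225.2 in B (median 96.4). In C the signals were 3803.1, 3926.8, 2885.9, 1043.8 and 1636.5, so that replicates 1 to 3 lay above replicates 4 and 5 and all 5 were above every B array. D had 1113, 1076.2, 1049.1, 1047.2 and 717.9, and F had 1113.4, 1127.5, 1220.9, 1021.2 and 678.4. By this probe set, these 2 populations held nearly the same level, about that of the CLP median, with little spread between arrays. The second brightest ran from 688.5 to 1037.9 in D and from 404.5 to 1350.5 in F. The dimmest ran from 55.2 to 94.6 in D and from 10 to 27.4 in F.

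Car1 was highest in CLP, at 184.2 to 4584.1 (median 727.3), and most uneven in B, at 3.3 to 2090.7 (median 311). In A it was 7.7 to 489.4 (median 62.7). C had 559.7, 222, 56.9, 45.7 and 87.4, D had 83, 46.5, 39.7, 52.6 and 56.7, and F had 17.1, 100, 126.3, 72.7 and 130.2. From C on, only C replicates 1 and 2 and E replicate 2 exceeded 200 units.

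Car2 was bright throughout, with 2689.4 to 13328.3 in CLP (median 6154.2), 2009.2 to 4584.5 in A (median 3766.7) and 598.1 to 4566.4 in B (median 2407.2). C had 8369.1, 7671.5, 4112.2, 4495.5 and 4104.1, D had 1645.6, 1671.5, 1661.5, 1082.2 and 1256.2, and F had 1098.6, 658.8, 1324.2, 485.2 and 1049.7. C lay wholly above D, and CLP wholly above F.

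In fraction A against CLP, Car1, Klf1 and Slc4a1 fell and no gene of the set rose. Car1 averaged 112 ± 168 in A and 1174 ± 1528 in CLP (SD, n = 7 each), a log2 difference of -2.92 ± 0.61 (SE, adjusted p = 0.00043), although A replicate 1 overlapped CLP. Klf1 averaged 28.7 ± 16.9 in A and 408 ± 521 in CLP (-2.31 ± 0.48, adjusted p = 3.26e-04). Slc4a1 averaged 440 ± 781 in A and 1080 ± 765 in CLP (-2.03 ± 0.48, adjusted p = 0.00153), and its second brightest probe set fell by 2.87 on the log2 scale (adjusted p = 1.10e-04). Thus 4 of 9 probe sets were called, all down, where 22.2% of all probe sets were called and 15% were called down. The count is no independent evidence, since an erythroid list had been tested in this comparison before the genes were chosen. Car2 (-0.69, adjusted p = 0.141), Gata1 (-0.67, adjusted p = 0.242), Alas2 (-0.64, adjusted p = 0.270) and Epor (-0.59, adjusted p = 0.195) did not pass. Without A replicate 6, the array with the highest Epor signal of A, Epor passed (-0.87, adjusted p = 0.0298). Without A replicates 4, 6 and 7 together, Gata1 passed (-1.23, adjusted p = 0.0372). The median difference over the 9 probe sets was -0.69, against -0.023 over all probe sets. In the same comparison 8 of 14 neutrophil markers (median -1.44) and 6 of 8 plasma cell markers fell and none of either list rose, and their part in the fall of the 3 genes was not tested.

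In B against A, Alas2 alone passed: it averaged 53.2 ± 25.2 in B and 249 ± 208 in A, a difference of -1.39 ± 0.41 (adjusted p = 0.0126), with overlapping arrays. The call ended in a fit of A and B alone (adjusted p = 0.1003). That is 1 of 9 probe sets, where 17.7% of all were called and 9.35% were called down. Klf1 differed by 1.29 ± 0.48 (adjusted p = 0.0551), with 172 ± 188 in B and 28.7 ± 16.9 in A. It passed without any 1 of 5 arrays, among them E replicate 2 (adjusted p = 0.046) and B replicate 4 (adjusted p = 0.0171). Car1 differed by 1.31 ± 0.61 (adjusted p = 0.138), with 492 ± 726 in B and 112 ± 168 in A, and passed without A replicate 1 (adjusted p = 0.0386) or B replicate 1 (adjusted p = 0.0262). Median centring of the arrays would take -0.19 from each difference here, -0.23 in A against CLP and 0.42 in C against B, and at most 0.03 in size in the other 2 comparisons.

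C against B held the largest difference of the 5 comparisons. Slc4a1 rose to 2659 ± 1287 in C (SD, n = 5), against 117 ± 62.7 in B (n = 7), which is 17.2-fold on the scale used (log2 4.11 ± 0.53, adjusted p = 3.10e-07). Its second brightest probe set rose by 4.03 (adjusted p = 4.87e-06), while the dimmest rose by 1.23 (adjusted p = 0.0329) and lost the call without any 1 of 6 arrays, with an adjusted p of 0.135 without C replicate 3. Alas2 rose to 649 ± 224 in C, against 53.2 ± 25.2 in B, or 8.09-fold (log2 3.02 ± 0.45, adjusted p = 3.65e-06). Car2 rose to 5750 ± 2093 in C, against 2513 ± 1154 in B (log2 1.29 ± 0.37, adjusted p = 0.0136), with overlapping arrays. The call on Car2 ended with median centring (0.87, adjusted p = 0.111). With these, 5 of 9 probe sets were called, all up, where 13.1% of all probe sets were called and 9.18% were called up. The median difference was 1.23 over the 9 probe sets and 0.14 over all probe sets. The nuclear factors, the receptor and Car1 did not move with them: Klf1 differed by 0.43 (adjusted p = 0.696), Epor by 0.25 (adjusted p = 0.747), Gata1 by 0.029 (adjusted p = 0.983) and Car1 by -0.59 (adjusted p = 0.665).

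In the same comparison all 14 measured neutrophil markers (Mpo, Elane, Camp, Ltf, S100a8 and others) rose, and their summed signal was 57742.7 to 82419.6 in C against 2984.7 to 22175.8 in B. Of 11 macrophage markers 5 rose, and of 10 mast cell, basophil and eosinophil markers none passed. Risers also held 5 of 12 NK and T cell, 3 of 8 plasmacytoid dendritic cell and 2 of 8 plasma cell markers, with none down. The part of other cells in the rise of Slc4a1, Alas2 and Car2 was not tested.

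In D against C, Car2 and Alas2 fell and no other gene passed. Car2 averaged 1463 ± 276 in D and 5750 ± 2093 in C (SD, n = 5 each), a difference of -1.90 ± 0.40 (adjusted p = 8.35e-04). Alas2 averaged 201 ± 99.9 in D and 649 ± 224 in C (-1.58 ± 0.48, adjusted p = 0.0247). Neither gene had overlapping arrays, but Alas2 lost the call without any 1 of 4 arrays (C replicate 2, adjusted p = 0.0757, C replicate 3, 0.0527, D replicate 3, 0.0634, and D replicate 4, 0.0784). Slc4a1 averaged 1001 ± 160 in D and 2659 ± 1287 in C and did not pass (-1.23 ± 0.57, adjusted p = 0.169). When C and D were fitted without the other populations it was called (adjusted p = 0.00388). In all, 2 of 9 probe sets were called, both down, where 11.3% of all were called and 5.94% were called down. The median over the 9 was -0.93, against 0.058 over all. Of the 14 neutrophil markers, 10 fell and none rose. So did 6 of 12 NK and T cell and 2 of 8 plasmacytoid dendritic cell markers, with none up.

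In F against CLP, the ends of the path, 5 of 9 probe sets fell and none rose, where 27.7% of all were called and 13.1% were called down. Car2 averaged 923 ± 343 in F (n = 5) and 6297 ± 3417 in CLP (n = 7), a difference of -2.65 ± 0.37 (adjusted p = 2.28e-07). Car1 averaged 89.3 ± 46.5 in F and 1174 ± 1528 in CLP (-2.77 ± 0.67, adjusted p = 0.00144). Klf1 (-1.83 ± 0.53, adjusted p = 0.00661), Alas2 (-1.57 ± 0.45, adjusted p = 0.00623) and Epor (-1.14 ± 0.35, adjusted p = 0.0121) also fell. Epor lost the call without CLP replicate 6 (adjusted p = 0.0521). Gata1 differed by -1.08 (adjusted p = 0.0627). It passed without CLP replicate 1 (adjusted p = 0.0221), without A replicate 4 (0.0432), without A replicates 4, 6 and 7 together (0.0270), with a pseudocount 4 times larger (0.0487) and in a fit of F and CLP alone (0.0289). Slc4a1, by its brightest probe set, was the exception among the bright genes, with 1032 ± 210 in F and 1080 ± 765 in CLP. That difference of 0.16 ± 0.53 (adjusted p = 0.861) takes the other sign without CLP replicate 7 (-0.057). Its other probe sets were lower in F: the second brightest differed by -0.36 (adjusted p = 0.706) and the dimmest by -1.01 (adjusted p = 0.0550). The dimmest had no overlapping arrays and passed without E replicate 2 (adjusted p = 0.0421). In the same comparison 9 of 10 mast cell, basophil and eosinophil markers fell (median -3.41), as did 6 of 14 neutrophil and 7 of 12 NK and T cell markers. All calls named here were kept without E replicate 2.

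**Figure D2:**
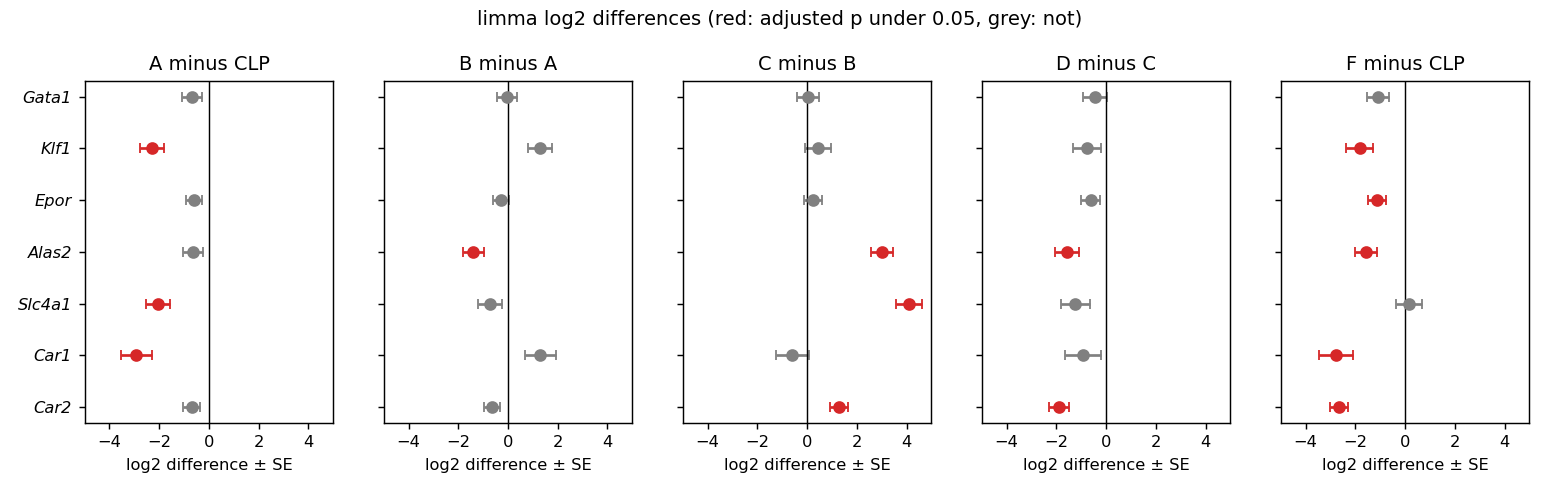
log2 difference in signal + 32 with its standard error for the 7 genes (brightest probe set each) in the 5 tested comparisons; red points passed an adjusted p of 0.05 and grey ones did not. Slc4a1 and Alas2 stand far to the right in C minus B, at 4.11 and 3.02, while Car1 and Car2 stand to the left in F minus CLP, at -2.77 and -2.65.

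Other erythroid genes did not all follow the same course. In A against CLP, 7 of 14 nuclear factors, 8 of 18 membrane and skeleton genes, 7 of 16 heme and iron genes and 5 of 16 other late red cell genes fell, and 0, 2, 2 and 2 of them rose. Of all probe sets 15% were called down and 7.20% up. The nuclear factors that fell were Tal1, Gfi1b, Nfe2, Bcl11a, E2f2, Hemgn and Foxo3. The list is not particular to red cells: Bcl11a, Ikzf1 and Myb read 5008 to 11214 in the E arrays other than replicate 2. The list medians were -0.65, -0.68, -0.83 and -0.26, against -0.023 over all probe sets. The mitochondrial iron importer Slc25a37 (-1.76 ± 0.21, adjusted p = 1.31e-08), the blood group protein gene Kel (-1.80 ± 0.39, adjusted p = 5.69e-04) and Ermap, of the red cell membrane (-3.08 ± 0.64, adjusted p = 4.71e-04), were among those that fell, while the iron storage gene Fth1 and the transferrin receptor gene Tfrc, which many proliferating cells use, rose.

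In C against B, 7 of the 16 other late red cell genes rose and 1 fell, but 2 of 18 membrane genes rose and 2 fell, 1 of 16 heme and iron genes rose and 2 fell, and 1 of 14 nuclear factors rose and 1 fell. The list medians, in that order, were 0.58, 0.52, 0.35 and 0.30, against 0.14 over all probe sets. Of all probe sets 9.18% were called up and 3.91% down. The risers held Epb42 (1.82 ± 0.39, adjusted p = 9.00e-04), which encodes a red cell protein that binds band 3, and Ank1 (1.54 ± 0.45, adjusted p = 0.0167), whose product ties band 3 to the skeleton. Of the globin genes measured, Hbb-b2 averaged 4728 in C and 711 in B (2.78 ± 0.49, adjusted p = 8.40e-05), and Hba-a2 averaged 11333 in C and 8249 in B (0.48 ± 0.15, adjusted p = 0.0197). Adult globin copies are nearly identical, so these probe sets may read more than 1 of them. Against the other genes, Tfrc fell by 0.80 in C.

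In D against C, 4 of 16 other late red cell genes, 3 of 14 nuclear factors, 2 of 16 heme and iron genes and 1 of 18 membrane genes fell, with 0, 0, 2 and 1 that rose. Of all probe sets 5.94% were called down there and 5.34% up, so the membrane count was near that share. The list medians, in that order, were -0.51, -0.084, -0.32 and -0.44, against 0.058 over all probe sets. In F against CLP, 7 of 14 nuclear factors fell: Tal1 (-1.62 ± 0.37), Nfe2 (-1.96 ± 0.41), Gfi1b, Myb, Ikzf1, Foxo3 and Gata2, which is also on the mast cell list. So did 7 of 16 other late genes, 5 of 16 heme and iron and 5 of 18 membrane genes. The list medians, in that order, were -0.66, -0.55, -0.28 and -0.54, against 0.11 over all probe sets. Of all probe sets 13.1% were called down and 14.6% up. None of the nuclear factors and 1 gene of each other list rose: Tmcc2 of the late list by 2.37 ± 0.41 (adjusted p = 1.29e-05), Slc2a1, a glucose transporter of the membrane list, by 1.22 ± 0.26 (adjusted p = 3.40e-04), and Fth1 of the heme and iron list by 0.70 ± 0.10. In B against A the counts were small and ran both ways, with 2 up and 1 down among the nuclear factors and among the heme genes, and 2 up and 2 down in each of the other 2 lists. Of all probe sets 8.36% were called up there and 9.35% down, so these counts do not set the lists apart. The medians were 0.099 (nuclear factors), 0.50 (heme and iron), -0.13 (membrane) and 0.41 (other late), against -0.11 over all probe sets.

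Among the E arrays, replicate 2 held the highest signal of 6 of the 7 genes. Of all 45037 probe sets, 11123 were highest on that array. Slc4a1 was 8841.9 in E replicate 2, against 1949.8, 1087, 1238.6 and 947.9 in the other E arrays. Alas2 was 960.8 in replicate 2, against 315.6, 205.3, 172.9 and 191.5 in the others. Klf1 was 572.7, against 142, 66.8, 88.1 and 155.4, and Car2 was 6951.7, against 2014.6, 1380.7, 889.4 and 1150. Each of these 4 genes stood at least 2-fold above every other E array on the log2(signal + 32) scale. The ratio to the mean of the other 4 arrays was 6.77 for Slc4a1, 5.12 for Car2, 5.06 for Klf1 and 4.34 for Alas2.

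Car1 (249.4 in replicate 2, against 100.3, 67.1, 117.6 and 131.2) and Epor (41.8, against 16.1, 6.4, 10 and 12) were highest there by smaller margins on this scale. Gata1 was 143.4 in replicate 2, against 201.8, 58.7, 13.4 and 139.9, and so was not highest there. Over all probe sets, 602 of 45037 (1.34%) stood at least 2-fold above every other E array in replicate 2, and 5 of the 9 probe sets of the 7 genes were among them. With replicate 2 apart, the E median of Slc4a1 was 1163 and that of Car2 was 1265, between those of D and F for Car2 and just above both for Slc4a1.

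The rest of the red cell programme stood apart in E replicate 2 in part. Ermap was 4851.6 there, against 769.2 to 1532.4 in the other E arrays, Ank1 was 958.9 against 103.3 to 246.3, Fech, the last enzyme of heme synthesis, was 2704.8 against 579.8 to 1128.2, and Bpgm, which makes the red cell's 2,3-bisphosphoglycerate, was 6619.7 against 1770.5 to 2984.5. By list, 8 of 18 membrane genes, 5 of 16 other late genes, 2 of 16 heme and iron genes and 1 of 14 nuclear factors were at least 2-fold above every other E array on the log2(signal + 32) scale. Of 6 globin probe sets none was on that scale, though Hbb-b2 came close. Hba-a2 was 10616.2 in replicate 2 against 9590 to 11227.2 in the others, and Hbb-b2 was 9855.4 against 2401.9 to 4917. The rest (Hba-a1, Hba-x, Hbb-bh1 and Hbb-y) were near the floor in replicate 2, at 3.1 to 7.7, and so say little.

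The same array stood apart in other cells' genes. Of 14 neutrophil markers 13 were at least 2-fold above every other E array and all 14 were highest there, with a summed signal of 106972 against 12710 to 28592.8. Of 10 mast cell, basophil and eosinophil markers 6 were 2-fold above (9357.8 against 1039.5 to 2669.4), of 9 B lineage markers 2, and of 10 megakaryocyte and 8 plasmacytoid dendritic cell markers none. All 4 progenitor markers were highest there and 2 were 2-fold above (4564 against 1786.7 to 2736.1). Of 11 macrophage markers 2 were (2602.6 against 672.9 to 1142.7), of 12 NK and T cell markers 1, and of 8 plasma cell markers 1. The B lineage markers Vpreb1 (9195 against 498.6 to 1439.1) and Igll1 (1561.5 against 90.8 to 388.4), of the pre-B receptor, were also high there. Dntt led all genes apart from the set, at 3644.1 against at most 242.2, followed by Mmp9, Ltf, Fpr2 and Mmp8. The part of these cells in the values of the 7 genes was not tested.

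**Figure D3:**
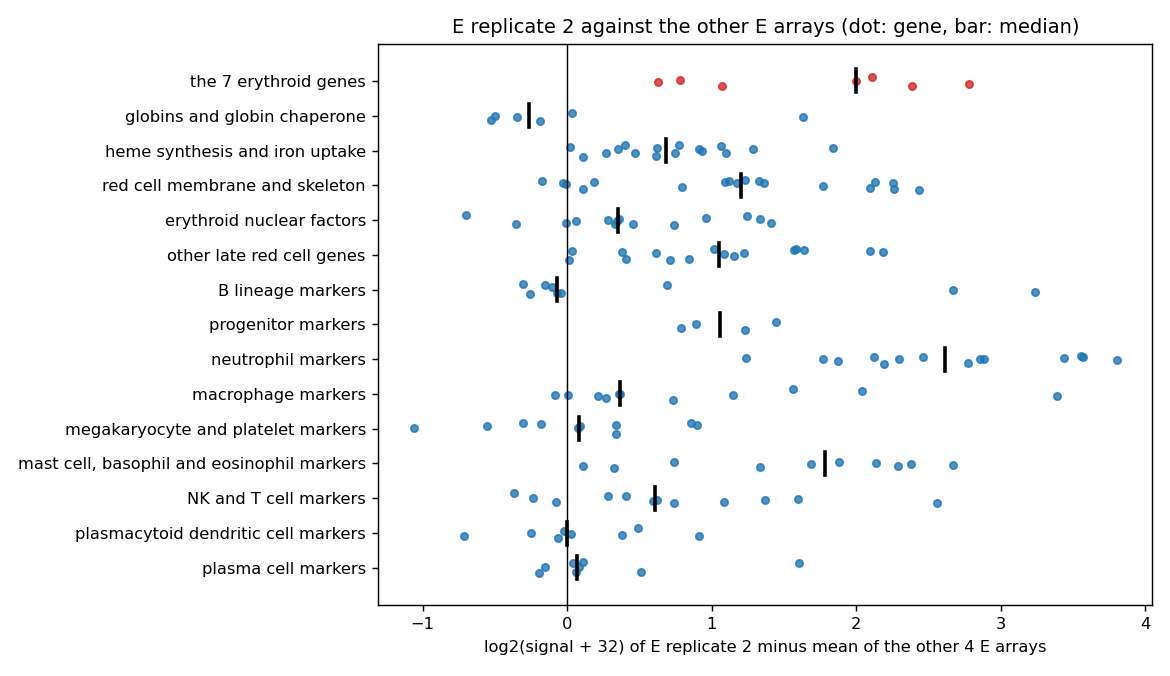
log2(signal + 32) of E replicate 2 minus the mean of the other 4 E arrays; each dot is a gene (7 erythroid genes in red, genes of 14 lists in blue) and each black bar the median of its row. The median of the 7 genes was 2.00, that of the neutrophil markers 2.62, and that of the globins -0.27. The globin median rests on dim probe sets: Hba-a1, Hba-x, Hbb-bh1 and Hbb-y read 3.1 to 7.7 in E replicate 2. The bright globin genes Hbb-b2 and Hba-a2 differed by 1.63 and 0.034.

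Single arrays of other populations stood out in several of the 7 genes. The CLP arrays other than replicate 6 carried them too, with Klf1 at 79.1 to 332.8 and Car1 at 184.2 to 980.1. CLP replicate 6 had the highest CLP signal of 6 of the 7 genes, with Klf1 at 1562.3 (against at most 332.8 in the other CLP arrays), Car1 at 4584.1 (at most 980.1), Gata1 at 586.3 (at most 226.2), Epor at 399 (at most 146.9), Slc4a1 at 2674.2 (at most 1186.3) and Car2 at 13328.3 (at most 6375.7). Alas2 was 280.3 there, within the range of the other CLP arrays. B replicate 5 led B in 5 genes, with Car1 at 2090.7 (at most 466.6 in the other B arrays) and Klf1 at 561.9 (at most 200.9), while its Alas2 was 62, no higher than in the others. On that array 764 of all probe sets (1.70%) stood at least 2-fold above every other B array. How many probe sets were merely highest on CLP replicate 6 or B replicate 5 was not counted. E replicate 2 differed from both in carrying high Alas2 and a modest Car1.

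The mean log2 level of the mast cell, basophil and eosinophil markers was highest of all arrays in CLP replicate 6 (11.34), and in B replicate 5 it was the highest of B (10.12). By summed signal, which the brightest markers set, the order was another: A replicate 7 had 125095, against 44932.4 in CLP replicate 6, and B replicate 3 had 36982.9, against 24256.3 in B replicate 5. Red cell lists were high there too. By mean log2 level, CLP replicate 6 was the highest array in the membrane (9.50), heme and iron (10.57) and nuclear factor (10.85) lists. E replicate 2 had 9.27, 10.03 and 10.39, and B replicate 5 led B with 8.50, 9.94 and 10.33. The other late genes were highest in E replicate 2 (10.12, against 10.08 in CLP replicate 6). By summed signal A replicate 4 passed CLP replicate 6 in the membrane list (40300.4 against 33792.5). A replicate 1 was high in Slc4a1 (2201.9) and Car1 (489.4), with Klf1 at 36.4, within the range of A. What these arrays had in common with E replicate 2 was not tested.

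**Figure D4:**
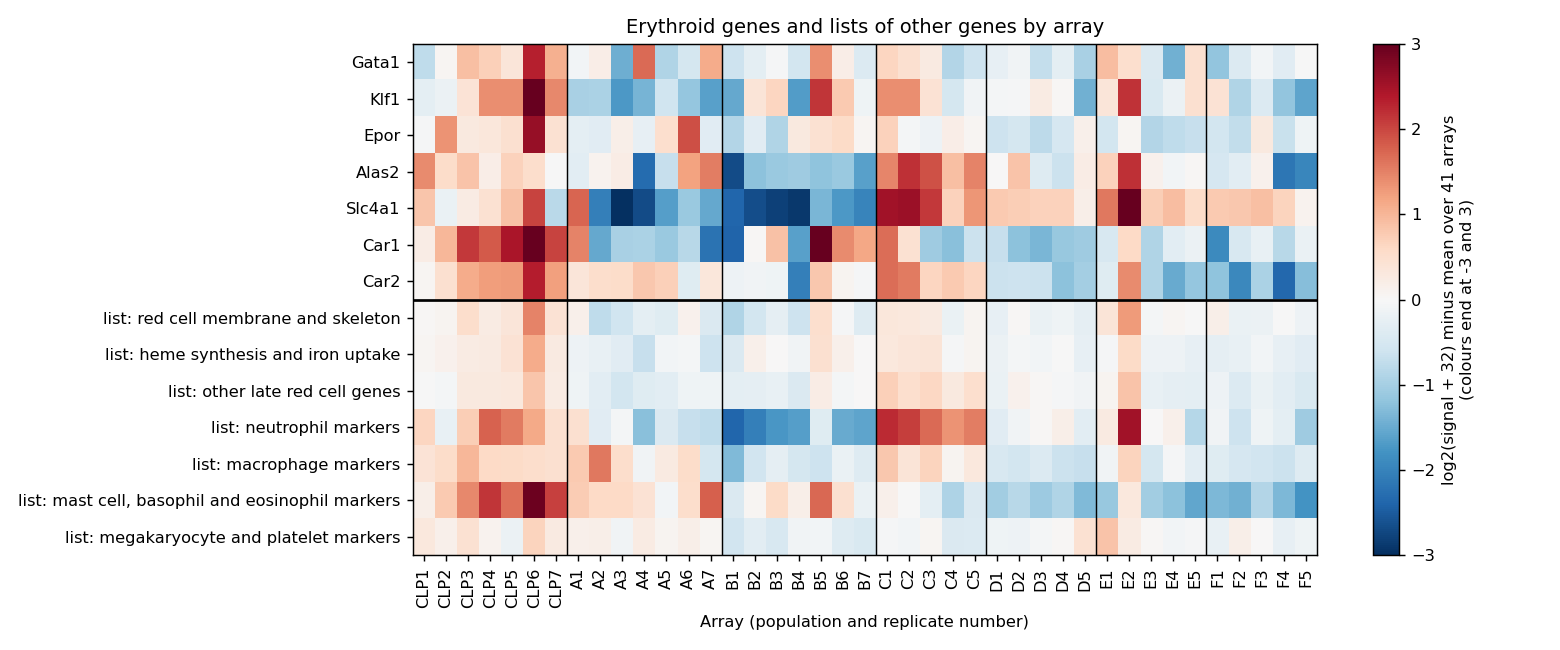
log2(signal + 32) minus its mean over the 41 arrays, for the 7 genes (upper rows) and for the mean of 7 gene lists (lower rows), in the order CLP to F with replicate numbers; colours end at -3 and 3. CLP replicate 6 and B replicate 5 are red in Klf1 and Car1 and in the mast cell list. The C arrays and E replicate 2 are red in Slc4a1, Alas2 and the neutrophil list. The split is not clean. E replicate 2 is also red in Klf1 (log2 level 9.24, against 9.21 in B replicate 5). CLP replicate 6 is also red in Slc4a1 (11.40) and the neutrophil list (10.25).

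Across the 40 arrays other than E replicate 2, Gata1, Klf1, Epor, Car1 and Car2 varied together in most of their pairs. These correlations are descriptions, since the arrays share populations and scaling. Klf1 and Car1 had a Pearson r of 0.77 (Spearman rho 0.63). Gata1 had 0.60 with Car1 and 0.55 with Klf1 and with Car2, Epor had 0.56 with Car1 and 0.54 with Car2, and Car2 had 0.57 with Car1 and 0.56 with Klf1. Epor was lower with Klf1 (0.38) and Gata1 (0.36). Alas2 and Slc4a1 had 0.56 (rho 0.54). Alas2 had 0.41 with Car2 and Slc4a1 had 0.40 with Klf1, whereas Slc4a1 and Car2 had 0.082, and Alas2 and Car1 0.088. With the population means taken off, Klf1 and Car1 still had 0.72, while Alas2 and Slc4a1 had 0.22. The grouping did not hold throughout on that measure. Epor had 0.17 with Gata1 and with Car2, and Slc4a1 had 0.54 with Car1, against 0.21 before. Within the 7 CLP arrays Car1 and Car2 had 0.98 and Klf1 and Car2 0.96, with CLP replicate 6 the highest array of all 3 genes, and Alas2 ran against Gata1 at -0.56.

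Against the lists, Klf1 was nearest to the heme and iron list (r = 0.87, and 0.79 with population means taken off) and the membrane list (0.78). The other late red cell and plasma cell lists had 0.75 each with Klf1. Car1 was nearest to the heme and iron list (0.79). Gata1 (0.61), Epor (0.61) and Car2 (0.75) were nearest to the mast cell, basophil and eosinophil list. Epor was about as near to the heme and iron list (0.61). With population means taken off, Gata1, Epor and Car2 had 0.66, 0.27 and 0.53 with the mast cell list. Epor then had 0.60 with the heme and iron list. Over the 40 arrays Slc4a1 was nearest to the neutrophil list (0.76), above the globin (0.66) and membrane (0.64) lists. With population means taken off this order turned: Slc4a1 had 0.64 with the other late red cell genes, 0.62 with the membrane list and 0.55 with the neutrophil list. Alas2 was likewise nearest to the neutrophil list over the 40 arrays (0.74), but with population means taken off it had 0.47 with the erythroid nuclear factors, 0.34 with the globins and 0.22 with the neutrophil list. Among 18186 genes ranked, Lcn2 (0.87) and Chil3 (0.86), both made by neutrophils, had the pattern most like that of Slc4a1, and Hp (0.82) and Trim56 (0.77) that of Alas2. Klf1 was most like Ermap (0.85) and Asns (0.84), Car1 like Asns (0.85) and Ces2g (0.81), Gata1 like Aqp1 (0.63) and Asns (0.62), Epor like Ctla4 (0.74) and Gatm (0.72), and Car2 like Ap3s1 (0.85) and Jchain (0.84). The mean of the 7 genes was most like Asns (0.87), Aldh1a1 (0.86), Cldn13, Aqp1 and Kel (0.82 each).

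**Figure D5:**
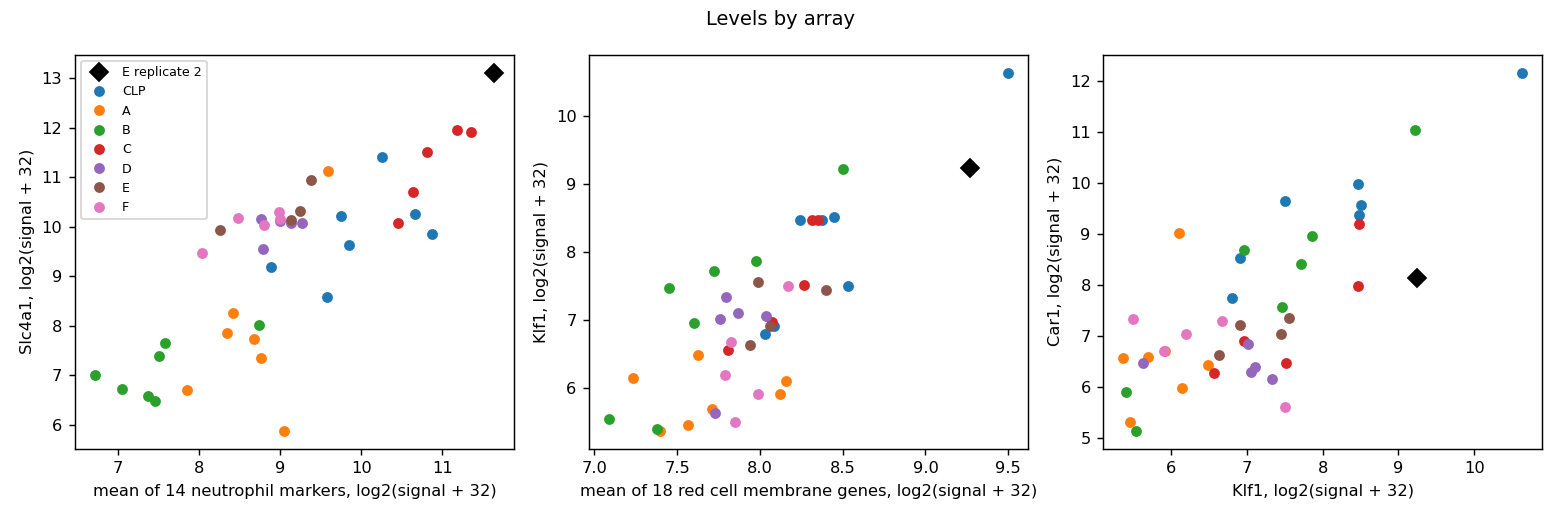
Levels on the log2(signal + 32) scale, 1 point per array coloured by population with E replicate 2 as a black diamond: Slc4a1 against the mean of 14 neutrophil markers, Klf1 against the mean of 18 red cell membrane genes, and Car1 against Klf1. C arrays and E replicate 2 lie at the upper right of the first panel and B arrays at the lower left; CLP replicate 6 is the highest point of the other 2 panels.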

How the data were processed

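RNA was extracted with Arcturus PicoPure and amplified with the NuGEN Ovation Pico kit, per the labels' protocols. Intensity is what the authors deposited, as a MAS5 signal (the submitters' processing notes name MAS5) scaled to a common target on each array. MAS5's version and the genome build are not given in the sources used here. Of 45101 rows, 64 controls were left out. The platform annotation gave 34945 probe sets 1 gene, 932 several and 9160 none. Of the 7 genes, 4 matched the promoter table.

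Groups came from the sample titles. The main fit was limma 3.58.1 (R 4.3.3, lmFit and eBayes with trend and robust options, statmod 1.5.0) on log2(signal + 32), with 1 mean for each of 7 populations over 41 arrays and no filter on dim probe sets. Comparisons with E were not tested. The code was tested on simulated data. Alternatives were pseudocounts of 1 and 128, a filter (array median reached on at least 5 arrays), quantile normalization, median centring, a replicate block, a fit of 2 populations, plain eBayes, probe sets averaged per gene, each array left out, and A replicates 4, 6 and 7 left out together, which was chosen after seeing the data. Other genes were named by rule: per list the 5 brightest in E replicate 2 and the 3 largest called differences per comparison, the genes most alike in pattern, and the 10 most apart in E replicate 2. The neutrophil, Vpreb1 and Igll1 values were named after they were seen. The genes and lists were chosen with earlier results of these data known. Precision depends on how many arrays each population has and on the spread pooled over all populations. Of 10 listed globin and chaperone genes, 6 had a probe set of that gene alone.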

Additional observations from a re-analysis of the deposited data

Results flagged for a closer look

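Each of 42 pairs of gene and population, E left out, was checked, on the log2(signal + 32) scale, for 1 array lying apart from the rest by Dixon's 95% critical value, which chance passes in about 1 in 20 groups, and 8 pairs passed. On the high side, B replicate 5 had a Gata1 signal of 291.8 against 47.6 to 109.8 in the other B arrays, A replicate 6 an Epor signal of 236.8 against 23.5 to 67.9, and A replicate 1 a Car1 signal of 489.4 against 7.7 to 72.7. On the low side, B replicate 1 had an Alas2 signal of 1.7 against 38.6 to 72.1, and D replicate 5 a Klf1 signal of 17.5 against 96.6 to 128.7 and a Slc4a1 signal of 717.9 against 1047.2 to 1113. Car2 was low in A replicate 6, at 2009.2 against 3286.7 to 4584.5, and in B replicate 4, at 598.1 against 2343.1 to 4566.4. CLP replicate 6 did not pass for any of the 7 genes by this criterion.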

How the results depend on the processing

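Over all probe sets, the fit of 2 populations alone called 4397 in A against CLP (9987 with all populations), 2160 in B against A (7978) and 12016 in D against C (5083). Quantile normalization called 3619 in C against B (5896), and leaving out A replicates 4, 6 and 7 together, chosen after seeing the data, called 10257 there and 9413 in D against C. Of the 9 probe sets of the 7 genes, B against A had 2 called with the filter, quantile normalization, median centring or the replicate block (Klf1 joined, adjusted p = 0.0496 with the block), 0 with the 2-population fit, and 1 to 3 with 1 array left out; the main count was 1. C against B had 3 with median centring in place of 5. D against C had 1 with a pseudocount of 1 (Alas2 adjusted p = 0.156) and 4 with the 2-population fit, in place of 2, and 1 to 2 with 1 array left out. Alas2 in B against A was not called in the 2-population fit. Differences that took the other sign were never called: Gata1 in B against A (-0.049) became 0.089 with a pseudocount of 1, 0.038 with quantile normalization, 0.14 with median centring, 0.52 without A replicates 4, 6 and 7, and -0.29 to 0.23 with 1 array left out. Gata1 in C against B (0.029) became -0.31 with quantile normalization, -0.39 with median centring and -0.14 to 0.27 with 1 array left out. Epor in C against B became -0.17 with median centring, and Slc4a1 in F against CLP (0.16) became -0.40 as the mean of its probe sets and -0.057 to 0.41 with 1 array left out. The cause of these changes was not tested. Same-numbered arrays of different populations did not deviate together (median r 0.004 over 111 pairs, 5 of them over 0.1, and 9 of 41 arrays correlated best with their own number). Pairing by number was thus not seen. A shared source need not show in such deviations, so the check cannot exclude it. The E replicate 2 differences kept their direction under the 5 alternatives run for them (both other pseudocounts, probe sets averaged per gene, quantile normalization and median centring), and 6 of 35 moved by more than the spread of the other E arrays. Dim signals limit Epor, Gata1 and Klf1, since most of their values lie near or below the array median.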
